A study of Mus musculus with 2 samples.

Results

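Matrix metalloproteinases and their tissue inhibitors were followed in cultured mouse neural retinal progenitor cells (mNRPCs) and in mouse retina. The set held 9 genes of the 31253 genes in the matched table, listed by name and chosen with earlier results of these data known. It comprised the inhibitor genes Timp1, Timp2, Timp3 and Timp4, the matrix metalloproteinase genes Mmp2, Mmp9, Mmp14 and Mmp15, and Adamts1. The mNRPC group was 1 library of C57BL/6 retina progenitor cells at passage 24. By the methods of the study, such cells came from adult neural retina digested with dispase and trypsin, were plated on Matrigel, and were kept in N2/B27 medium. The medium was supplemented with the mitogen bFGF and with CHIR99021, which blocks glycogen synthase kinase 3. The comparison group was 1 library of C57BL/6 retina tissue, which holds neurons, glia and vessels, with no treatment given in the labels. Neither group carried a transgene or gene deletion according to the labels, and the number of animals or cultures behind each library was not given in the sources used here. Each group had a single library, so every difference below lacks a replicate check and carries no p-value.

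Levels are given in FPKM, fragment numbers scaled to transcript length and library size, which allows genes to be compared per length. All FPKM together came to 616860 in mNRPCs and 432256 in retina. The depth was estimated at 6.60e+06 and 5.13e+06 fragments, respectively, and all counting intervals given here are 95% intervals from estimated fragments that cover counting error only. Of the 7 progenitor and cycling cell markers, 7 were at 1 FPKM or above in the mNRPC library and 4 in the retina library, with summed levels of 889 and 157.8 FPKM. Ccnd1 (371 and 4.26 FPKM) and Sox2 (230.6 and 18.5 FPKM) made up most of the mNRPC sum, whereas Pax6 (122.6 and 100.7 FPKM) and Six3 (39.7 and 33.2 FPKM) lay within 2-fold. Rcvrn, a rod marker, measured 0.133 FPKM in mNRPCs, and the astrocyte marker Gfap was listed at 0 there. The study reported both in mNRPCs by other assays, RCVRN and GFAP by immunofluorescence and GFAP also by RT-PCR. The 6 rod markers summed to 6.28 FPKM in mNRPCs and 14651 FPKM in retina. The retina library also held 5 of 7 pigment epithelium markers and 4 of 5 endothelium markers at 1 FPKM or above, of which the mNRPC library held 0.

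Matrix metalloproteinases are zinc enzymes that cleave collagens, proteoglycans and other proteins outside the cell or at its surface. They are made as inactive proenzymes in which a cysteine of the propeptide holds the zinc, and removal of the propeptide activates them. The TIMP proteins insert their first residues, which begin with a cysteine, into the active site and bind the zinc. TIMP-3, unlike the other inhibitors, stays bound to the matrix and also blocks several ADAM and ADAMTS enzymes. In the eye it is known as a product of the pigment epithelium that is deposited in Bruch's membrane, and mutations of the human gene cause Sorsby fundus dystrophy.

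The sequences that carry these activities are shown first because they separate the inhibitors from the proteases. They were read from the coding sequence of the GENCODE M21 annotation (GRCm38) on the coding strand, 5′ to 3′. In the inhibitors the capitals mark the first 3 codons of the mature protein, which encode Cys-x-Cys. The Timp1 site lay at chrX:20871111-20871149 (+ strand, exon 2 of 6), the Timp2 site at chr11:118354974-118355012 (− strand, exon 1 of 5), the Timp3 site at chr10:86300923-86300961 (+ strand, exon 1 of 5) and the Timp4 site at chr6:115251653-115251691 (− strand, exon 1 of 5).
Timp1: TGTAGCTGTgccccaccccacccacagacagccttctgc
Timp2: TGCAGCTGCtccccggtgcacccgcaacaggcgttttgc
Timp3: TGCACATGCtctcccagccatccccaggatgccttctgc
Timp4: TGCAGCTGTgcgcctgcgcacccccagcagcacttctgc

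In the proteases the capitals mark the zinc-binding stretch, which encodes His-Glu-x-x-His followed by the last zinc-binding histidine. The Mmp2 site lay at chr8:92839267-92839323 (+ strand, exon 8 of 13), the Mmp9 site at chr2:164951121-164951177 (+ strand, exon 8 of 13), the Mmp14 site at chr14:54437615-54437671 (+ strand, exon 5 of 10) and the Mmp15 site at chr8:95368573-95368629 (+ strand, exon 5 of 10). The Adamts1 site spanned exons 3 and 4 of 9 at chr16:85799179-85799557 (− strand), an interval that includes the intron between them.
Mmp2: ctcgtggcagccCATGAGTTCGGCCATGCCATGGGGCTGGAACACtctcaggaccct
Mmp9: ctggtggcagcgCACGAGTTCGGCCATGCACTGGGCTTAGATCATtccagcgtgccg
Mmp14: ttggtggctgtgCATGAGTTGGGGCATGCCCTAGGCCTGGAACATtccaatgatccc
Mmp15: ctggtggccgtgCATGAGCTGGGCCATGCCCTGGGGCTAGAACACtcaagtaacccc
Adamts1: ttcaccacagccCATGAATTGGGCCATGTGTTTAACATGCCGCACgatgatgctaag

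The 4 MMP genes encoded glycine at the eighth residue of this stretch, and Adamts1 encoded asparagine. From the encoded proteins, the inhibitors had 205 (Timp1), 220 (Timp2), 211 (Timp3) and 224 (Timp4) residues, and were 40.1% to 49.3% identical in pairs. Timp2 and Timp4 were the closest inhibitor pair. Mmp14 and Mmp15 were 59.1% identical, and Mmp2 and Mmp9 were 50.3% identical. Both Mmp14 and Mmp15 encoded a strongly hydrophobic stretch of 19 residues close to the carboxyl end, with a mean Kyte-Doolittle hydropathy of 3.16 and 3.09, as membrane-type enzymes do. The highest value after the zinc site was 0.537 in Mmp2, 0.863 in Mmp9 and 0.932 in Adamts1, which are secreted. A basic stretch of the kind cut by furin (Arg-x-Arg or Lys-Arg) lay ahead of the zinc site once in Mmp14 and 3 times each in Mmp15 and Adamts1, with 0 in Mmp2 and Mmp9.

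Of the 9 genes, 8 reached 1 FPKM in at least 1 library and were compared. In the mNRPC library, 5 genes (Timp1, Timp2, Timp3, Mmp2 and Mmp14) were at least 2-fold higher on the log2(FPKM + 1) scale, beside 24.5% of the 13780 genes compared. Mmp9 and Mmp15 were at least 2-fold lower, beside 30.0% of genes compared. Rescaling both libraries to a common sum changed the shares over all genes to 19.2% higher and 40.8% lower, and taking library totals without rod genes changed them to 17.5% and 40.1%. The same 5 and 2 genes stood past 2-fold under both. Adamts1 lay within 2-fold, and Timp4 was under 1 FPKM in both libraries. The median log2 ratio over all 9 genes was 1.82, against −0.12 over all genes compared. The summed level of the 9 genes was 553 FPKM in mNRPCs and 66.4 FPKM in retina, or 0.0897% and 0.0154% of all FPKM. In bulk RNA, fewer cells of a type and less RNA per cell cannot be told apart.

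**Figure D1:**
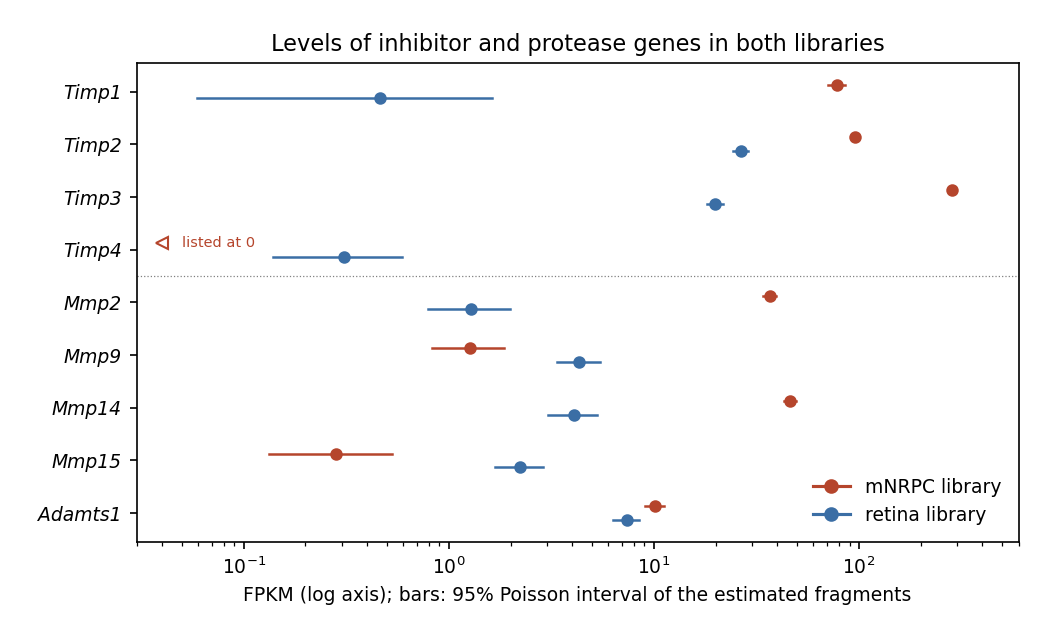
FPKM of each gene (log axis) in the mNRPC library (red) and the retina library (blue), 1 library each, with 95% Poisson intervals of the estimated fragments. Timp3 stood highest in the mNRPC library at 285 FPKM and Timp2 highest in the retina library at 26.5 FPKM, and Timp4 was listed at 0 in the mNRPC library (open triangle).

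Timp3 was the most abundant of the 9 genes in the mNRPC library. The gene (chr10:86300412-86349505, + strand, GRCm38.p6) measured 285 FPKM in mNRPCs and 19.9 FPKM in retina. The log2 ratio was 3.78 (counting interval 3.65 to 3.9), a 14.3-fold difference in FPKM (13.1 to 15.7). It ranked 294 of 31253 genes in the mNRPC library and 3907 in the retina library, so that its place among genes differed as well as its level. The 7 pigment epithelium markers summed to 0.309 FPKM in mNRPCs and 76.0 FPKM in retina, with Ttr at 56.5 FPKM and Rpe65 at 8.53 FPKM in the latter. The higher Timp3 level was therefore found in the library in which those markers were near 0. Timp3 lies within Syn3, a synapsin gene on the opposite strand, which measured 0.0879 FPKM in mNRPCs and 2.75 FPKM in retina.

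Timp1, an inducible secreted inhibitor that binds the proenzyme of MMP-9, showed the largest log2 ratio of the 9 genes. The gene (chrX:20870166-20874737, + strand) measured 77.9 FPKM in mNRPCs and 0.460 FPKM in retina. The retina value corresponded to an estimated 2.08 fragments, under the 3-fragment limit of 0.663 FPKM, against 454 fragments in the mNRPC library. The log2 ratio was 5.76 (4.90 to 6.24), and the ratio of FPKM was 169 with a counting interval of 47.7 to 1320. Timp1 was thus well above detection in the mNRPC library, and its retina level was not measured with any precision at this depth. Its reads were divided among 3 transcripts, which took 70.6%, 25% and 4.36% of its level in the mNRPC library, while in the retina library 2 of them took 49.9% and 50.1%. Timp1 lies within Syn1, a synapsin gene on the opposite strand, which was lower in the mNRPC library (0.592 FPKM) than in the retina library (28.2 FPKM).

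Timp2, which is broadly expressed and together with MMP-14 forms the surface complex that activates the MMP-2 proenzyme, was high in both libraries. The gene (chr11:118301061-118355411, − strand) measured 95.9 FPKM in mNRPCs and 26.5 FPKM in retina. Its log2 ratio was 1.82 (1.68 to 1.96), a 3.63-fold difference (3.29 to 4.0). Among the 3 inhibitors that were higher in the mNRPC library, Timp2 differed least, and its counting interval overlapped neither that of Timp3 nor that of Timp1. Cep295nl, which lies on the same strand within the interval of Timp2, measured 0.634 FPKM in mNRPCs and 0.0562 FPKM in retina.

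Timp4, the inhibitor best known from heart and brain, was listed at 0 in mNRPCs, against 0.308 FPKM in retina. The retina value corresponded to an estimated 8.68 fragments with the 5496 bp transcript and to 1.49 fragments with the 945 bp transcript, so its detection depended on the transcript behind the estimate. The gene (chr6:115244444-115252205, − strand) lies within Syn2, a synapsin gene on the opposite strand, which was listed at 0 in mNRPCs, against 11.1 FPKM in retina. Timp4 and Syn2 were both above 0 in the retina library alone, and the part of Syn2 reads in the Timp4 value was not tested.

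The gelatinases Mmp2 and Mmp9, secreted enzymes that cleave denatured collagen and type IV collagen of basement membranes, differed in opposite directions. Mmp2 (chr8:92827290-92853421, + strand) measured 36.7 FPKM in mNRPCs and 1.29 FPKM in retina. The log2 ratio was 4.04 (3.65 to 4.41), a 28.5-fold difference (18.4 to 46.7) that rested on an estimated 745 and 20.3 fragments. In the retina library Mmp2 stood in the lowest 3.69% of genes at 1 FPKM or above, and in the mNRPC library it stood above 78.5% of them.

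Mmp9 (chr2:164940326-164955850, + strand), which is known as an enzyme of leukocytes and of activated glia and neurons, measured 1.27 FPKM in mNRPCs and 4.31 FPKM in retina. The log2 ratio was −1.23 (−1.64 to −0.79), and the retina level was 3.40-fold higher (2.15 to 5.54). These values rested on an estimated 26.6 and 70.2 fragments. The 6 microglia and macrophage markers summed to 1.23 FPKM in mNRPCs and 5.81 FPKM in retina, with 4 of 6 at 0 in the former. C1qa made up most of the retina sum (4.04 FPKM, listed at 0 in mNRPCs), whereas Tmem119 made up nearly all of the mNRPC sum and was slightly higher there (1.22 and 0.880 FPKM). Of the 2 markers compared, 1 was lower in mNRPCs and 1 lay within 2-fold, and their part in the Mmp9 difference was not tested. In both gelatinase genes, the curated transcript held most of the level. Its share was 95.5% and 95% for Mmp2, and 94.9% and 94.0% for Mmp9, in the mNRPC and retina libraries, respectively.

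The membrane-type enzymes Mmp14 and Mmp15, which share the hydrophobic stretch described above, also differed in opposite directions. Mmp14 (chr14:54431598-54442456, + strand) encodes MT1-MMP, a collagenase of the cell surface and the main activator of the MMP-2 proenzyme. It measured 46.1 FPKM in mNRPCs and 4.06 FPKM in retina, with a log2 ratio of 3.22 (2.89 to 3.55) and an 11.3-fold difference (8.61 to 15.2). Mmp15 (chr8:95352296-95374293, + strand), which encodes MT2-MMP, measured 0.282 FPKM in mNRPCs and 2.22 FPKM in retina. Its log2 ratio was −1.33 (−1.65 to −0.97), and the retina level was 7.87-fold higher (3.94 to 17.6), from an estimated 9.56 and 58.4 fragments. Of the membrane-type pair, Mmp14 was higher in both libraries, and the gap between them was larger in the mNRPC library.

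Adamts1 (chr16:85793827-85803113, − strand), a secreted protease that cleaves the proteoglycans versican and aggrecan, measured 10.1 FPKM in mNRPCs and 7.36 FPKM in retina. The log2 ratio was 0.41 (0.17 to 0.65), a 1.37-fold difference (1.14 to 1.65). Its direction depended on the scaling. The ratio was −0.054 when both libraries were rescaled to a common sum and −0.096 when library totals were taken without rod genes. Adamts1 is therefore not described as different between the libraries. Relative to the median of all genes compared, it stood 0.53 higher on the log2 scale.

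**Figure D2:**
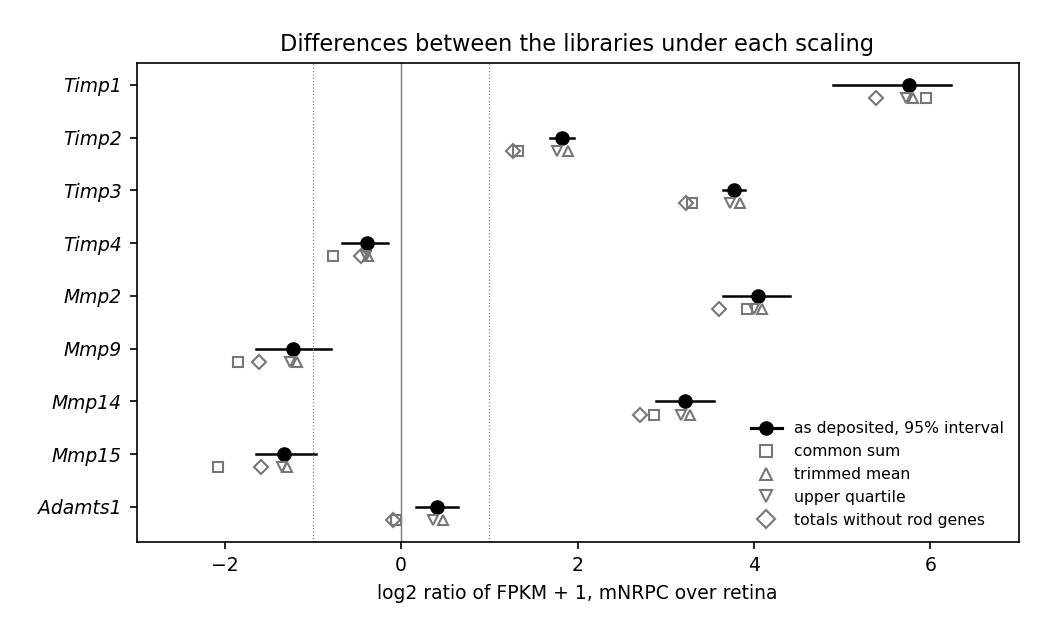
Log2 ratio of FPKM + 1 (mNRPC over retina) for each gene as deposited (filled points, with 95% counting intervals) and under 4 other scalings (open symbols). Dotted lines mark a 2-fold difference. Timp1, Timp2, Timp3, Mmp2 and Mmp14 lay above the upper line and Mmp9 and Mmp15 below the lower line under every scaling shown, whereas Adamts1 lay on either side of 0.

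The order of levels was not the same in the libraries. In the mNRPC library it ran Timp3, Timp2, Timp1, Mmp14, Mmp2, Adamts1, Mmp9, Mmp15 and Timp4. No neighbours had overlapping counting intervals when the 5496 bp transcript was taken for Timp4. With the 945 bp transcript, the 3-fragment limit of Timp4 there was 0.481 FPKM, above the Mmp15 level of 0.282 FPKM. The separation of Timp4 from Mmp15 thus depended on the transcript. In the retina library the order ran Timp2, Timp3, Adamts1, Mmp9, Mmp14, Mmp15, Mmp2, Timp1 and Timp4. There, Mmp9 and Mmp14 could not be told apart by counting error, nor could any neighbours from Mmp15 down to Timp4. The retina order was therefore led by a pair of inhibitors and Adamts1, followed by Mmp9 with Mmp14, and below them Mmp15 and Mmp2.

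**Figure D3:**
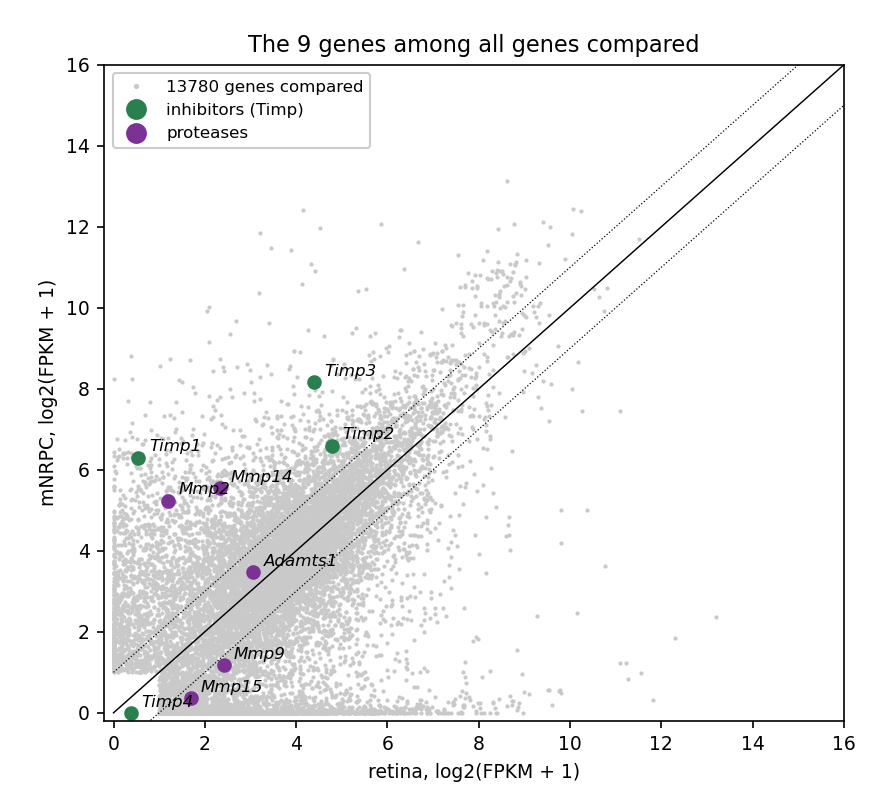
Log2(FPKM + 1) in the retina library (horizontal axis) against the mNRPC library (vertical axis) for 13780 genes (grey), with the 4 inhibitors (green) and 5 proteases (purple). The solid line marks equal levels and dotted lines a 2-fold difference. Timp1, Mmp2, Mmp14 and Timp3 lay far above the line, and Mmp9 and Mmp15 below it.

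Because FPKM is per length, the levels of inhibitors and proteases were also summed within each library. The 4 inhibitors summed to 458.8 FPKM and the 5 proteases to 94.4 FPKM in the mNRPC library, a ratio of 4.86. The sums were 47.1 and 19.2 FPKM in the retina library, a ratio of 2.45. Both pools were larger in the mNRPC library. Inhibitor mRNA exceeded that of these 5 proteases in both libraries, but not that of a wider set in retina. With the other Mmp and Adamts genes added, an alternative chosen after seeing the data, 42 protease genes summed to 201.4 FPKM in mNRPCs and 50.4 FPKM in retina, and the ratios were 2.28 and 0.934. The ratio rested on Timp3, and without it was 1.84 in the mNRPC library and 1.42 in the retina library. These are ratios of mRNA and hold no measure of protein or activity.

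The make-up of each pool differed. Timp3 made up 62.1% of inhibitor FPKM in the mNRPC library and 42.2% in the retina library, where Timp2 held 56.2%. The share of Timp2 in the mNRPC library was 20.9%. Timp1 made up 17.0% and 0.976%, respectively. Among the proteases, Mmp14 and Mmp2 held 48.8% and 38.9% in the mNRPC library, and 21.1% and 6.69% in the retina library. Adamts1 made up 10.7% in the mNRPC library and was the largest protease share in the retina library at 38.3%. Mmp9 and Mmp15 held 22.4% and 11.5% of protease FPKM in the retina library but 1.34% and 0.299% in the mNRPC library. For genes that encode the complex that activates MMP-2, the ratio of Timp2 to Mmp14 mRNA was 2.08 in mNRPCs and 6.52 in retina. The ratio of Mmp2 to Timp2 mRNA was 0.383 and 0.0487, respectively. These are not amounts of protein in the complex.

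**Figure D4:**
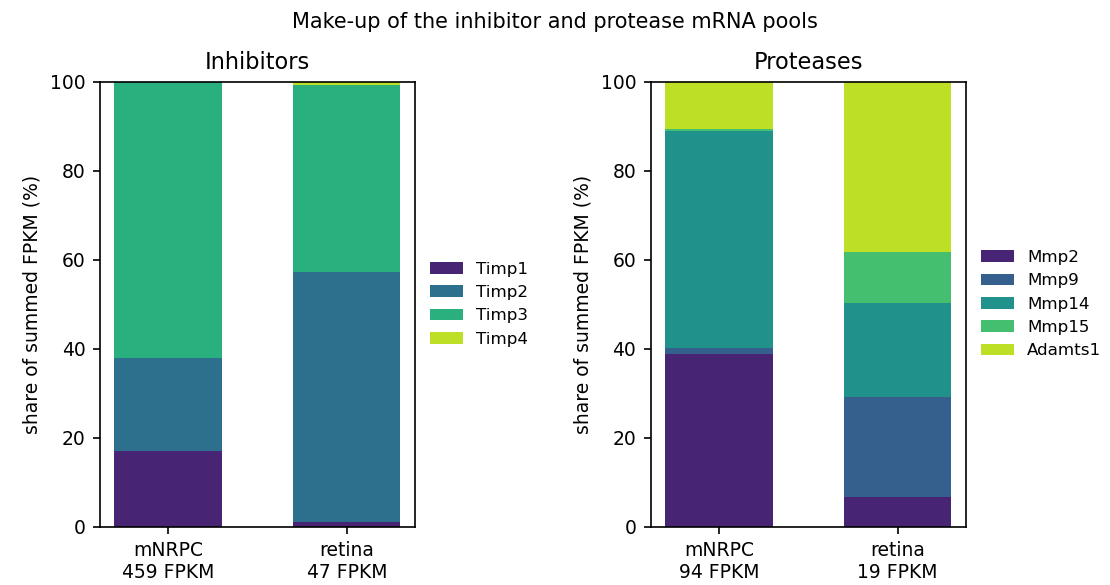
Share of summed FPKM (%) of each inhibitor (left) and each protease (right) in the mNRPC and retina libraries, with the sum of each pool under its bar. Timp3 took most of the inhibitor pool of the mNRPC library and Timp2 most of that of the retina library, and Mmp14 with Mmp2 took most of the protease pool of the mNRPC library.

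The 250 bases ahead of the start were read from RefSeq (GRCm38.p6) for 7 of the 9 genes. Mmp2 and Mmp9 are named only. The windows of Timp1 (chrX:20869916-20870165, + strand) and Mmp14 (chr14:54431348-54431597, + strand) are shown, since these genes were higher together and no GENCODE exon falls in either window. Capitals mark AGGAAG, the core bound by ETS family factors, and the GC box GGGCGG, bound by Sp family factors, on either strand.
Timp1: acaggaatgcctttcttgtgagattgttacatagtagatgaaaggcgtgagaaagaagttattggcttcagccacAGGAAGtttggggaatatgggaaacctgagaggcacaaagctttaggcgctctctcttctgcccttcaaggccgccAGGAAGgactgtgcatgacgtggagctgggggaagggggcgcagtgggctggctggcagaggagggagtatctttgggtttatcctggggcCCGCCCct
Mmp14: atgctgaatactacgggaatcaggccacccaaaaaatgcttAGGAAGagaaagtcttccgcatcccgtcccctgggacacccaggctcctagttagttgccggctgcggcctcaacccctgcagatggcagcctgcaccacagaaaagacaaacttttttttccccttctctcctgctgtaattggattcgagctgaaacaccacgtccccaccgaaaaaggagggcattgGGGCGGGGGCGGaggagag

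AGGAAG was found on either strand in 4 of the 7 windows (Timp1, Timp3, Timp4 and Mmp14), beside 29.5% of 32851 windows of the same length. GGGCGG was found in 6 of 7 (all but Timp4), beside 32.7%. TATAAA was found in Adamts1 alone, beside 12.4%. The AP-1 core TGANTCA, where N is any base, was in 0 of 7 windows, beside 6.75%, and the TCF/LEF core CTTTGAT, through which β-catenin acts when glycogen synthase kinase 3 is inhibited, was in 0 of 7, beside 3.21%. The GC content of the windows ran from 53.6% in Timp4 to 68.0% in Timp2, with a median of 52.4% over all windows. GENCODE exons covered 203 of the 250 bases in the Timp2 window, 40 in that of Timp3 and 28 in that of Mmp15. The values of these windows thus rest partly on exon bases. Genes on both sides of the comparison held the GC box, so that the letters did not separate them. A match of letters is not a bound site, and its absence says only that those letters are not in this window.

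Other genes of extracellular proteolysis were described by 7 lists with 88 genes, also chosen with earlier results of these data known. Of the 58 that reached 1 FPKM, 34 (58.6%) were at least 2-fold higher in the mNRPC library and 14 (24.1%) at least 2-fold lower, beside 24.5% and 30.0% of all genes compared. With a common sum or with totals without rod genes, the counts were 29 higher and 16 lower. The shares over all genes under these scalings were 19.2% and 17.5% higher, and 40.8% and 40.1% lower. Among 19 other Mmp genes, 14 were under 1 FPKM in both libraries. Mmp11, a stromelysin, measured 15.1 FPKM in mNRPCs and 0.329 FPKM in retina, and Mmp19 at 2.73 and 0.218 FPKM. Mmp17, a membrane-type enzyme anchored by a lipid, was at 0.183 and 4.25 FPKM, and Mmp24, a membrane-type enzyme of neurons, was listed at 0 in mNRPCs, against 4.5 FPKM in retina. Mmp14 was therefore the highest of the membrane-type genes in the mNRPC library, while Mmp24, Mmp17 and Mmp14 lay side by side in the retina library.

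Of 18 other Adamts genes, 12 were compared, and 7 were higher and 3 lower in the mNRPC library, beside 24.5% and 30.0% of all genes. Proteoglycan-cleaving members were among the former. Adamts4 measured 23.9 FPKM in mNRPCs and 0.737 FPKM in retina, Adamts9 at 16.9 and 0.164 FPKM, and Adamts20 at 12 and 0.196 FPKM. Adamts14, which processes procollagen, was at 14.9 and 0.0309 FPKM. Adamts5, the other main aggrecanase, was lower at 1.85 against 4.74 FPKM, a log2 ratio of −1.01 that fell within 2-fold under trimmed mean scaling, and Adamts3 and Adamts18 were listed at 0 against 3.84 and 1.5 FPKM. In the mNRPC library, Adamts1 (10.1 FPKM) thus lay below Adamts4, Adamts9, Adamts14 and Adamts20, all of which were below 1 FPKM in the retina library. In the retina library, Adamts1 (7.36 FPKM) was above every other Adamts gene listed, with Adamts5 next.

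Of the 9 membrane ADAM genes, which release growth factors and receptors from the cell surface and include targets of TIMP-3, 6 were compared, with 3 higher and 0 lower, beside 24.5% and 30.0% of all genes. With a common sum or with totals without rod genes, 2 were higher, beside 19.2% and 17.5% of all genes. Adam15 measured 88.5 FPKM in mNRPCs and 16.5 FPKM in retina, Adam10 at 60.9 and 15.3 FPKM, and Adam17 at 13.6 and 4.93 FPKM. Adam9 differed less, at 59.1 and 41.6 FPKM. Timp3 was above each of these genes in the mNRPC library, and below Adam9 in the retina library.

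Among 11 genes that activate, clear or regulate the metalloproteinases, 10 were compared, with 5 higher and 2 lower, beside 24.5% and 30.0% of all genes. The plasminogen activators Plau (19.6 and 0.269 FPKM in the mNRPC and retina libraries) and Plat (56.2 and 3.78 FPKM) were both higher in the mNRPC library. So was the urokinase receptor Plaur (7.5 and 0.286 FPKM). Furin, which cuts the propeptide of MMP-14, was at 32.8 and 13 FPKM, and Lrp1, the receptor that clears protease and inhibitor complexes, at 23.6 and 9.80 FPKM. Pcsk6, another proprotein convertase, was listed at 0 against 5.96 FPKM, and A2m, a general protease trap, was at 0.206 against 2.57 FPKM. When the libraries were rescaled to a common sum, or totals were taken without rod genes, 3 of the 10 genes were at least 2-fold higher, beside 19.2% and 17.5% of all genes. Reck, a membrane inhibitor of MMP-2, MMP-9 and MMP-14, was at 1.24 and 1.0 FPKM and lay within 2-fold, unlike Timp1, Timp2 and Timp3.

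Of 12 serpin genes, 9 were compared, with 6 higher and 3 lower, beside 24.5% and 30.0% of all genes. The leading member was Serpinh1, at 822 FPKM in mNRPCs and 5.46 FPKM in retina, which is a chaperone of collagen folding and not a protease inhibitor. Serpinf1, which encodes pigment epithelium-derived factor and likewise inhibits no protease, was at 24.8 and 2.02 FPKM. Inhibitory members were also higher, with Serpinb6a at 170.5 and 9.08 FPKM, Serpinb9 at 12.5 and 1.26 FPKM and Serpina3n at 10.7 and 2.84 FPKM. Serpini1, the inhibitor of neurons, was lower at 5.32 against 29.7 FPKM, as were Serping1 at 1.71 against 5.62 FPKM and Serpine2, listed at 0 against 2.33 FPKM.

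**Figure D5:**
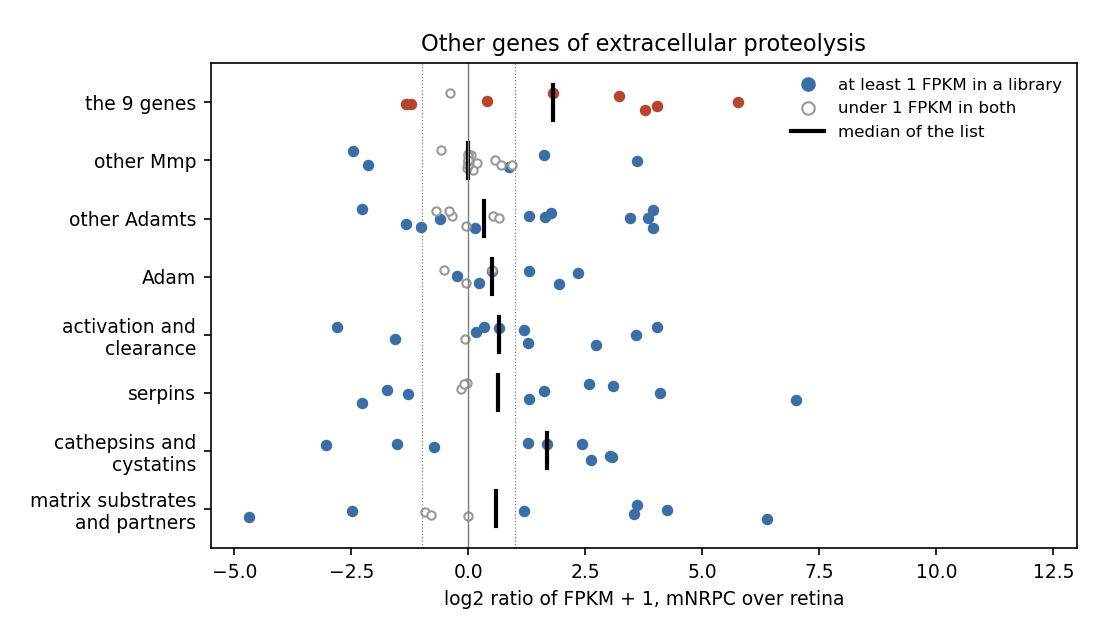
Log2 ratio of FPKM + 1 (mNRPC over retina) of every gene of the 9-gene set (red) and of 7 further lists (blue), with open points for genes under 1 FPKM in both libraries and a bar at the median of each list. The median was 1.82 for the 9 genes, 1.69 for cathepsins and cystatins, and between 0 and 0.65 for the other lists.

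Markers of other cell types were read beside these genes, and they differed in both directions. The 6 fibroblast markers summed to 454.9 FPKM in mNRPCs and 5.63 FPKM in retina, of which Col3a1 made up 449.8 and 0.311 FPKM. Col1a1 was also higher but low, at 1.35 and 0.552 FPKM, and Pdgfra was at 1.76 and 1.23 FPKM. Lum was listed at 0 in both libraries, Col1a2 was at 0.0843 and 0.952 FPKM and Dcn at 1.96 and 2.58 FPKM. Judged by log2(FPKM + 1), only Col3a1 of the 6 markers passed 2-fold towards mNRPCs. Col1a1 passed 2-fold in plain FPKM, but its log2(FPKM + 1) ratio was 0.60. The 5 pericyte markers summed to 4.5 and 10.7 FPKM, with Pdgfrb at 4.49 and 1.24 FPKM and Rgs5 listed at 0 in mNRPCs, against 8.16 FPKM in retina. The 6 Müller glia markers summed to 49.8 and 1319 FPKM, the 5 endothelium markers to 0.132 and 38.4 FPKM and the 3 astrocyte markers to 0.0875 and 12 FPKM. The part of Col3a1-expressing cells in the higher Timp1, Timp3, Mmp2 and Mmp14 levels, and the part of glia and vessels in the retina levels, was not tested.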

How the data were processed

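RNA of 1 mNRPC sample and 1 retina tissue sample was sequenced after TRIzol extraction. The authors deposited FPKM values for each RefSeq transcript. The submitters' processing notes name TopHat2 2.0.10, TopHat and GRCm38.p3, whereas the study's methods, which describe mNRPCs under different treatments, name Bowtie 2 and eXpress. Which of them made this table is not stated, nor is strand. Reads that fit several transcripts are divided by estimation, so transcript shares are less certain than gene sums, and a value of 0 can be a failed estimate.

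Of 106754 rows, 74283 (69.6%) were matched by accession without version to RefSeq (GRCm38.p6) or GENCODE M21 and summed per symbol. They held 93.2% of mNRPC FPKM and 89.9% of retina FPKM. Patch releases share chromosome coordinates. Estimates below 1e-06 FPKM were read as 0. Following the study, 1 was added before log2, which understates differences of low genes, and genes with at least 1 FPKM in 1 library were compared and counted when the log2 ratio was at least 1 in size. Depth was estimated from 6228 transcripts of at least 1500 bp. The most common low value of FPKM times length was taken as a single fragment, and was sought only within a fixed range. With a shortest transcript of 500 bp the depth was 6.54e+06 and 4.82e+06 fragments. From estimated fragments, exact Poisson intervals were taken for levels and log2 ratios and exact binomial intervals for folds. With no replicates no test was made. The log2 ratios and the depth estimate were tested on simulated data, with simulated depths inside the range that was searched.

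The 9 genes and all lists were chosen with earlier results of these data known. All 9 genes are named, and from each list the genes with at least 5 FPKM and the largest log2 ratios, up to 5, and those needed to account for a count. Not every counted list gene is reported here by name. Genes beyond this rule (Reck, Ctsk, marker and overlapping genes) are given as context for the 9 genes. Coding sites were found in translated GENCODE M21 transcripts and aligned with Biopython 1.88. Python 3.11.15, numpy 2.4.6, pandas 2.3.3, scipy 1.17.1 and matplotlib 3.10.9 were used. Alternatives covered the pseudocount, scaling, row matching, the filter and the threshold.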

Additional observations from a re-analysis of the deposited data

How the results depend on the processing

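Without replicates, depth limits chiefly Timp1 in the retina library, Timp4 and Mmp15, and no value shows biological spread. No paired analysis was possible because the labels gave no replicate numbers and 1 library a group. Over all alternatives, no log2 ratio past 2-fold changed direction where a value was obtained. Adamts1 was the exception among values within 2-fold, at −0.054 with a common sum and −0.096 with totals without rod genes, against 0.41. Relative to the median gene these differ little, since the scalings shifted the median of all genes to −0.61 and −0.62. With the common sum, other log2 ratios were 1.33 for Timp2, 3.30 for Timp3, −0.78 for Timp4, −1.85 for Mmp9, 2.86 for Mmp14 and −2.07 for Mmp15, with a median of 1.33. With totals without rod genes they were 1.27 for Timp2, 3.23 for Timp3, 3.60 for Mmp2 and 2.71 for Mmp14, with a median of 1.27. A pseudocount of 0.1 gave 7.12 for Timp1, −2.03 for Timp4, 4.73 for Mmp2, −1.69 for Mmp9 and −2.60 for Mmp15. A pseudocount of 0.5 gave −0.69 for Timp4 and −1.80 for Mmp15. Matching accessions with their version left fewer genes, with a median of 2.8, 3 of the set higher and 0 lower, and 9 genes of the further lists lower. It gave no inhibitor to protease ratio. At a minimum of 5 FPKM the median was 3.50, with 0 of the set and 6 genes of the further lists lower. With a threshold of 2 on the log2 scale, 0 of the set were lower. Without Timp3 the inhibitor to protease ratio was 1.84 in the mNRPC library and 1.42 in the retina library. With the other Mmp and Adamts genes added, a choice made after seeing the data, it was 2.28 and 0.934, so that in retina the inhibitors no longer exceeded the proteases. Counted over pairs of an alternative and a value of the 9-gene set, of the inhibitor to protease ratio or of the further lists together, 33 moved by more than the counting error or, for counts, by more than 1.5 times, and 108 did not. For counts of single lists, 13 moved and 141 did not.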

Other observations

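Cathepsins, lysosomal proteases that also act outside the cell, and their cystatin inhibitors differed in both directions. Of 9 genes, 6 were at least 2-fold higher and 2 lower in the mNRPC library, beside 24.5% and 30.0% of all genes compared. With a common sum or with totals without rod genes, 5 were higher and 3 lower, beside 19.2% and 17.5% of all genes higher and 40.8% and 40.1% lower. Ctsl measured 410 FPKM in mNRPCs and 49.1 FPKM in retina, Ctsz at 194.5 and 22.4 FPKM, Ctsb at 294 and 90.7 FPKM and Ctsd at 396 and 164 FPKM. Ctsk was at 0.656 and 1.77 FPKM, past 2-fold lower in plain FPKM but within 2-fold on the log2(FPKM + 1) scale (−0.74). Among the inhibitors, Cstb was at 308 and 49.4 FPKM and Cst6 at 7.07 and 0.492 FPKM, while Cst3, which encodes cystatin C, was lower at 401 against 1152 FPKM. Ctss, a protease of microglia, was at 0.320 against 9.81 FPKM.

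Substrates and binding partners of the metalloproteinases also differed. Of 10 genes, 7 were compared, with 5 higher and 2 lower, beside 24.5% and 30.0% of all genes. With a common sum or with totals without rod genes, 4 were higher, beside 19.2% and 17.5% of all genes. Tnc, which encodes tenascin-C, measured 90.9 FPKM in mNRPCs and 0.0943 FPKM in retina. The basement membrane genes Hspg2 (26.4 and 0.445 FPKM) and Nid1 (14.9 and 0.372 FPKM), the ADAMTS substrate Vcan (20.2 and 0.752 FPKM) and Fn1 (9.09 and 3.43 FPKM) were also higher. Efemp1, whose protein binds TIMP-3, was listed at 0 in mNRPCs, against 24.8 FPKM in retina. Bcan, a brain proteoglycan cleaved by ADAMTS enzymes, was listed at 0 against 4.58 FPKM.

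The genes nearest to Timp3 in the plane of both log2(FPKM + 1) values were Pdpn (251 and 20.4 FPKM, distance 0.187), Id3 (241 and 22.7 FPKM, distance 0.304) and Sox2 (230.6 and 18.5 FPKM, distance 0.319). Those nearest to Timp1 were Trim30a (83.2 and 0.546 FPKM, distance 0.125), Sting1 (79.3 and 0.326 FPKM, distance 0.141) and Rsad2 (68.9 and 0.400 FPKM, distance 0.185). The retina level of Timp1 had a counting interval of 0.0592 to 1.62 FPKM, wider than these distances. The order of its neighbours was therefore not resolved. With 2 libraries such nearness is a description of levels alone.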
